A study of Mus musculus with 16 samples.

Results

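The genes described here are 35 genes of cholesterol synthesis and lipogenesis, chosen by name and split into a sterol branch of 19 and a fatty acid branch of 16. They were found among 28095 gene names on the arrays through 71 probes, and a gene with several probes (24 of the 35) was read from the brightest. All were measured in aortas of female C57BL/6 mice that lack ApoE, the lipoprotein whose loss leads to atherosclerosis in mice. The study compared 4 groups of 4 arrays. Mice received a pellet with medroxyprogesterone acetate (MPA), a placebo pellet run beside it, a pellet with norethisterone acetate (NET-A), or a placebo pellet run beside that. Every group, placebo included, shared the ApoE deficiency, ovariectomy at 4 to 5 weeks of age and a high-fat Western-type diet. Pellets went in 2 weeks after ovariectomy, were made to release for 90 days, and the aortas were taken after 78 to 90 days. MPA is a synthetic relative of progesterone and NET-A a synthetic relative of testosterone, and both bind the progesterone receptor. Their doses are not given in the sources used here. The labels do not say that each array is a separate animal, so p-values measure only the spread between these samples, which may be technical. In whole aorta, fewer cells of a type and less RNA per cell cannot be told apart. All groups carry the same deficiency, so the missing gene gives no check of which samples received a progestin.

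Cholesterol is built from acetyl-CoA through mevalonate, the isoprenoid chain to squalene, and a series of ring-modifying steps, while fatty acids are built from citrate-derived acetyl-CoA and then lengthened, desaturated and joined to glycerol. Transcription of both branches is driven by the sterol regulatory element binding proteins, SREBP-2 (gene Srebf2) mainly for sterol genes and SREBP-1 (Srebf1) mainly for fatty acid genes, which INSIG and SCAP proteins hold in or release from the endoplasmic reticulum. Liver and fat are the classical sites of lipogenesis, and fat lies directly against the mouse aorta.

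Promoter sequences are shown for 4 members that the results turn on: Fasn, whose level followed most of its branch closely over the NET-A and NET-A placebo arrays, Hmgcs1 from the sterol branch, and both SREBP genes. They are from RefSeq (build GRCm38.p6), each running from 250 bases before to 50 after a start, and 28 of the 35 members had at least one such window, 36 windows in all. Capitals mark CCAAT on either strand, the box bound by nuclear factor Y, and in Hmgcs1 also TCACNCCAC, the core of the classical sterol regulatory element, searched on both strands. The Fasn window lies at chr11:120824498-120824797 on the minus strand and holds 3 CCAAT matches, of which a pair overlaps as a palindrome. The Hmgcs1 window, at chr13:119690101-119690400 on the plus strand, holds 4 CCAAT matches and 1 match to the sterol element, which do not overlap. Srebf1 has 3 windows, and the one at chr11:60210422-60210721 on the minus strand is shown. The Srebf2 window lies at chr15:82147019-82147318 on the plus strand.
Fasn: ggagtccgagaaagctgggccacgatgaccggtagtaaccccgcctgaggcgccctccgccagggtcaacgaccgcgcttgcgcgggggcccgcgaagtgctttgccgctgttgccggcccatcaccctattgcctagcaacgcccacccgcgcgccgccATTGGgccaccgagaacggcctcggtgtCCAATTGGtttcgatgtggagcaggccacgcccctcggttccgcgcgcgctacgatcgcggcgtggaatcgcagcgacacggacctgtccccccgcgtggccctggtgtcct
Hmgcs1: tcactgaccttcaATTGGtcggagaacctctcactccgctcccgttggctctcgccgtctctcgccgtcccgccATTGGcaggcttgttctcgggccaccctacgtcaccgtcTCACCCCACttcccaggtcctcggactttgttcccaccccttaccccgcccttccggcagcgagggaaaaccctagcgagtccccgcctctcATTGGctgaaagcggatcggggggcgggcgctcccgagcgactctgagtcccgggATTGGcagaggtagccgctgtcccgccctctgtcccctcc
Srebf1: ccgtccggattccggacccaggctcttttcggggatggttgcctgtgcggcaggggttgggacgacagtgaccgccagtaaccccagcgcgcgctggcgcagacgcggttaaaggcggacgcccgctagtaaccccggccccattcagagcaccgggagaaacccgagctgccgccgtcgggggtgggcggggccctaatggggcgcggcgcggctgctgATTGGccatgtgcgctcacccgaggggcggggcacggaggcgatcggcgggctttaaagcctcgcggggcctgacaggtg
Srebf2: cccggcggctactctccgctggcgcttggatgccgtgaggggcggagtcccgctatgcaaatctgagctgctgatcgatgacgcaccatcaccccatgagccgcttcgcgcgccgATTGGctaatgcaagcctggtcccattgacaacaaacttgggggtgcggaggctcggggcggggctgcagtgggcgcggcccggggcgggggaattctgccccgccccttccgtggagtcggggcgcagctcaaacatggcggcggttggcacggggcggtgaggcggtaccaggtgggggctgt
CCAAT stood in 26 of the 36 member windows (72.2%), against 37.4% of all 32851 windows of the table. TCACNCCAC stood in 2 member windows (5.56%), one each of Hmgcs1 and Mlxipl, against 1.24% of all. The E-box CACGTG, which reads the same on both strands, stood in 16.7% of member windows against 7.15% of all. GGGCGG, the GC box, stood in 63.9% against 35.7%. A match is a description of letters and not a binding site. Scd1, Scd2, Stard4, Fdps, Sqle, Dgat2 and Fdft1 had no entry in the table.

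Levels are given as the log2 signal of a probe relative to the 75th percentile of its array, so that a level of 0 is a signal at that percentile, and differences are between groups for 1 probe. MPA and its placebo arrays shared slides 1 and 2, and NET-A and its placebo arrays slides 3, 4 and 5. The share of spots well above background ran from 46.3% to 60.6% over the arrays of MPA and its placebo, lowest on MPA replicate 2. It ran from 62.3% to 78.5% over those of NET-A and its placebo, lowest on NET-A replicate 1 and highest on NET-A replicate 2. In that experiment the 75th percentile of signal was also highest on NET-A replicate 2 (798.41), and it was lowest on NET-A placebo replicate 2 (311.39). In the MPA experiment it was lowest on MPA replicate 2 (164.71), against 514.61 to 992.4 on the other arrays. Correlations over genes between arrays of a group ran from 0.952 to 0.986. Smooth muscle markers (6 of 6) and endothelial markers (5 of 5) were measurable in both experiments. Adipocyte markers (10 of 10) and brown adipocyte markers (7 of 7) were measurable too, and the hepatocyte marker Ttr was well above background on none of the 16 arrays, while Alb was on 8 arrays of the MPA experiment and 4 of the NET-A experiment. The plot of every member by array shows the fatty acid members of the NET-A experiment spread more widely over arrays than the sterol members.

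**Figure D1:**
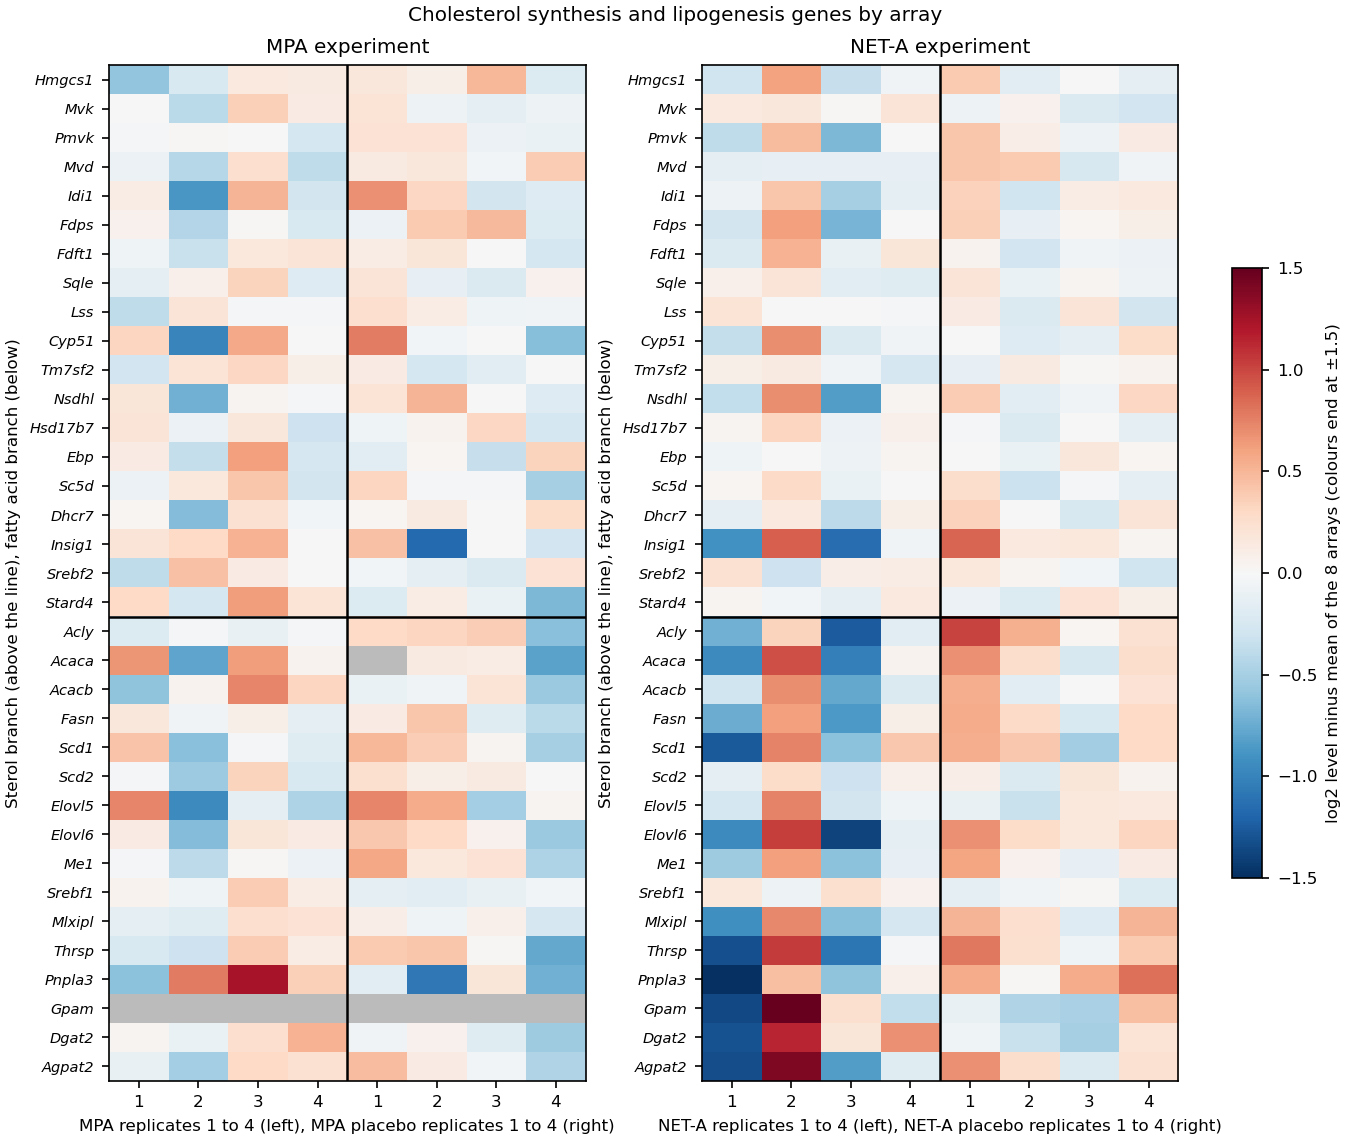
Heat maps of the log2 level of each of the 35 members (rows) on each array (columns) minus the gene's mean over the 8 arrays of its experiment, MPA experiment left and NET-A experiment right, with progestin arrays left of placebo arrays and grey for values not used. In the NET-A experiment replicate 2 of NET-A is red and replicates 1 and 3 are blue for most fatty acid members, while Srebf1 is nearly white with the opposite tint.

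No member changed with either progestin at the adjusted threshold, and the medians of the sterol branch stayed close to 0 in both comparisons. With MPA, 0 of 34 members passed an adjusted p of 0.05 in limma, where 0.0% of 15219 genes passed. With NET-A, 0 of 35 members passed, where 0.0% of 20912 genes passed. At an unadjusted p of 0.05, 0 members were counted with MPA (6.22% of all genes) and 1 with NET-A, Acly (6.19% of all genes). These counts take the brightest probe of each gene. In neither comparison did any member's 4 progestin arrays lie wholly above or below its 4 placebo arrays, which 4.01% of all genes did with MPA and 3.91% with NET-A. The gene with the smallest adjusted p was AK036030 with MPA (log2 change 0.85 ± 0.15 SE, adjusted p = 0.677) and Kcnk1, a potassium channel, with NET-A (2.17 ± 0.24, adjusted p = 0.331).

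The sterol branch had a median log2 change of -0.02 with MPA, with 8 members higher and 11 lower and changes from -0.33 to 0.51. With NET-A its median was -0.04, with 7 higher and 12 lower and changes from -0.60 to 0.26, but 0.05 with 12 higher and 7 lower when arrays were centred on their median. Over all genes tested the medians were -0.003 and -0.026, with 50.5% and 55.1% lower. Of the early enzymes, Hmgcs1, which makes HMG-CoA, gave -0.27 ± 0.22 with MPA and -0.05 ± 0.24 with NET-A. The kinases of mevalonate, Mvk and Pmvk, gave 0.03 ± 0.19 and -0.13 ± 0.15 with MPA, and 0.26 ± 0.12 and -0.28 ± 0.25 with NET-A. Idi1, Fdps and Fdft1, which carry isopentenyl units on to squalene, lay between -0.29 and -0.02 with MPA and between -0.19 and 0.18 with NET-A. The enzymes that close and modify the ring (Lss, Cyp51, Tm7sf2, Nsdhl, Hsd17b7, Ebp, Sc5d and Dhcr7) lay between -0.27 and 0.15 with MPA and between -0.24 and 0.18 with NET-A. Cyp51, which removes a methyl group from lanosterol, was well above background on 3 MPA arrays and 2 MPA placebo arrays, so its MPA value rests on dim spots. The plot of changes shows most sterol members near 0, with Insig1 (0.51 with MPA, -0.60 with NET-A) and Stard4 (0.44 with MPA) further out. The median SE of sterol members was 0.20 with MPA and 0.17 with NET-A, against 0.21 and 0.20 over all genes.

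**Figure D2:**
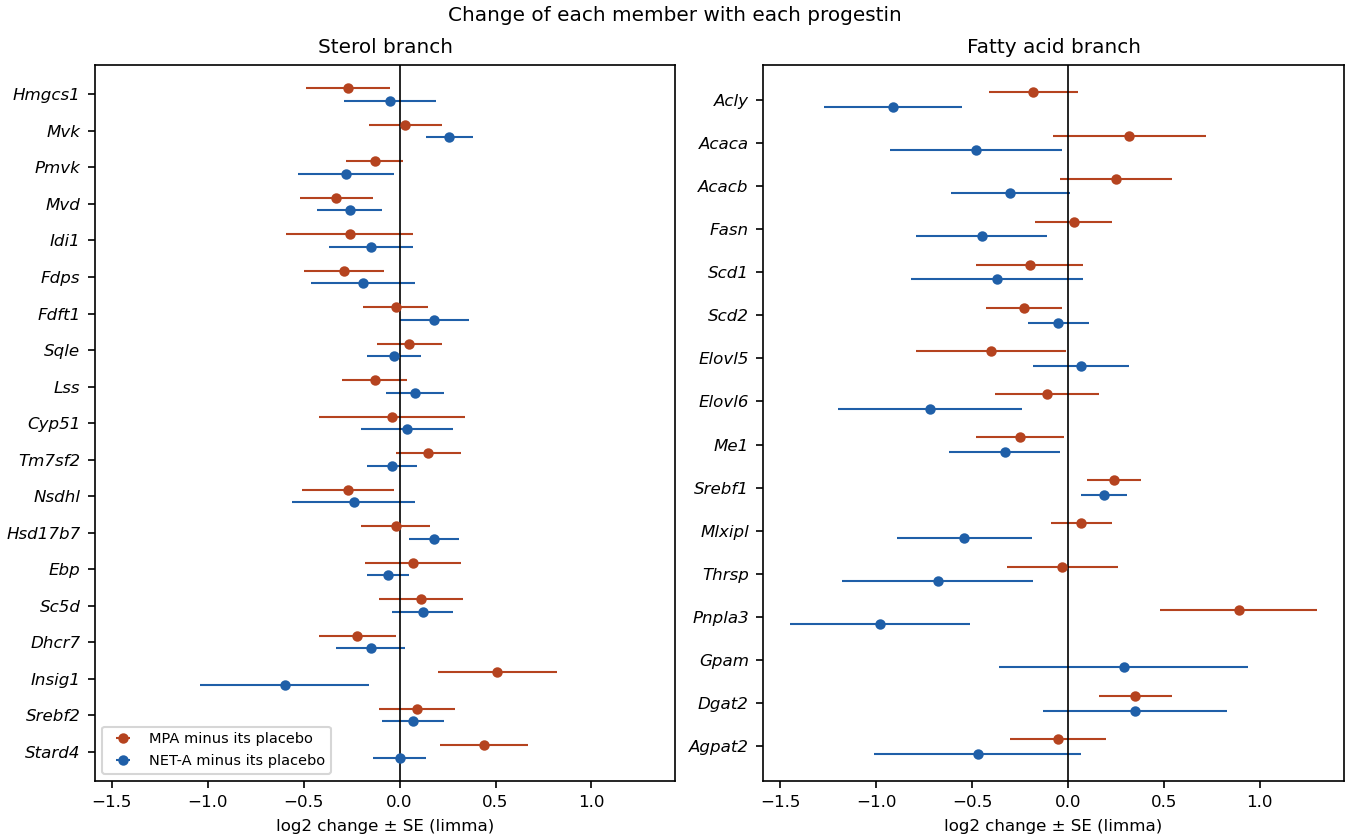
Log2 change ± SE of each member (limma, 4 arrays per group) for MPA minus its placebo (red, upper of each pair) and NET-A minus its placebo (blue, lower), with the sterol branch left and the fatty acid branch right. Sterol changes lie between -0.60 and 0.51, and 12 of 16 fatty acid members lie below 0 with NET-A, most with wide bars.

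Insig1, the protein that retains SCAP and SREBP when sterols are plentiful, had the highest change of the sterol branch with MPA and the lowest with NET-A. It stood at log2 levels of 0.32, 0.42, 0.65 and 0.12 on the MPA arrays, against 0.56, -1.04, 0.13 and -0.16 on the MPA placebo arrays. On the NET-A arrays it stood at -1.22, 0.58, -1.45 and -0.37, against 0.56, -0.17, -0.16 and -0.27 on the NET-A placebo arrays. All 4 MPA arrays lay within the span of their placebo arrays except replicate 3, and among NET-A arrays replicates 1 and 3 were the lowest and replicate 2 the highest. With MPA the change was 0.51 ± 0.31 (limma adjusted p = 0.855), and with NET-A -0.60 ± 0.44 (limma adjusted p = 0.918). The MPA value was 0.20 without placebo replicate 2, and the NET-A value was -0.33 without NET-A replicate 3, -0.40 without NET-A replicate 1 and larger in size without NET-A replicate 2. Within slides the NET-A value was -1.78 on slide 3, -1.28 on slide 4 and 0.32 on slide 5. A second Insig1 probe gave 0.18 and -0.46, the same signs.

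Stard4, a carrier that moves cholesterol between membranes, had the smallest p of the branch with MPA. Its levels were -0.93, -1.49, -0.60 and -1.03 on MPA arrays, against -1.44, -1.12, -1.33 and -1.91 on MPA placebo arrays, so that 3 MPA arrays lay above all placebo arrays and 1 below 3 of them. The change of 0.44 ± 0.23 had an adjusted p of 0.848 in limma, was 0.28 without placebo replicate 4, and was 0.07 within slide 1 and 0.81 within slide 2. With NET-A its levels were -1.19, -1.27, -1.38 and -1.09, against -1.32, -1.44, -1.02 and -1.14 with placebo, a full overlap, and the change was 0.00 ± 0.14 (95% interval -0.32 to 0.31).

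Mvd, which makes isopentenyl diphosphate, was among the members with the smallest p of the branch in both comparisons, with a negative sign each time. Levels on MPA arrays were -1.18, -1.52, -0.84 and -1.48, against -0.96, -0.92, -1.14 and -0.71 with placebo. On NET-A arrays they were -1.24, -1.23, -1.23 and -1.23, against -0.69, -0.71, -1.34 and -1.15 with placebo. The groups overlapped in both experiments, and the 4 NET-A arrays were nearly identical while their placebo arrays split into a higher and a lower pair. The changes were -0.33 ± 0.19 with MPA (limma adjusted p = 0.849) and -0.26 ± 0.17 with NET-A (limma adjusted p = 0.903). The MPA change was 0.03 under the normexp correction, and the NET-A change 0.02 within slide 5.
Mvk, the mevalonate kinase, had the smallest p of the sterol branch with NET-A. Its NET-A levels were -0.97, -0.94, -1.10 and -0.92, against -1.19, -1.05, -1.33 and -1.40 with placebo, so that only NET-A replicate 3 fell below a placebo array. The change was 0.26 ± 0.12 (limma adjusted p = 0.824), and 0.22 within slide 3, -0.04 within slide 4 and 0.43 within slide 5. On MPA arrays the levels were -0.88, -1.27, -0.51 and -0.75, against -0.66, -0.94, -1.0 and -0.94 with placebo, an overlap on both sides.

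Srebf2, on its brightest probe, and Sqle gave changes near 0. Srebf2 levels were 2.43, 3.24, 2.93 and 2.81 on MPA arrays, against 2.76, 2.67, 2.59 and 3.02 with placebo. On NET-A arrays they were 3.46, 2.92, 3.32 and 3.34, against 3.38, 3.27, 3.19 and 2.93 with placebo. The groups overlapped throughout, with 95% intervals of -0.35 to 0.54 for the MPA change and -0.30 to 0.44 for the NET-A change. Further measurable Srebf2 probes gave 0.32 ± 0.14 and 0.22 ± 0.19 with MPA. With NET-A they gave 0.07 ± 0.16 and 0.16 ± 0.20, and the dimmest probe gave -0.49 ± 0.52. Sqle, squalene epoxidase, a step that limits sterol flux, stood at 0.38, 0.59, 0.85 and 0.32 on MPA arrays, against 0.70, 0.39, 0.29 and 0.58 with placebo. Its NET-A levels were 0.44, 0.56, 0.21 and 0.19, against 0.56, 0.27, 0.41 and 0.29 with placebo. The groups overlapped again, with intervals of -0.34 to 0.43 and -0.34 to 0.28, so a change beyond about 0.43 in either direction lay outside both.

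**Figure D3:**
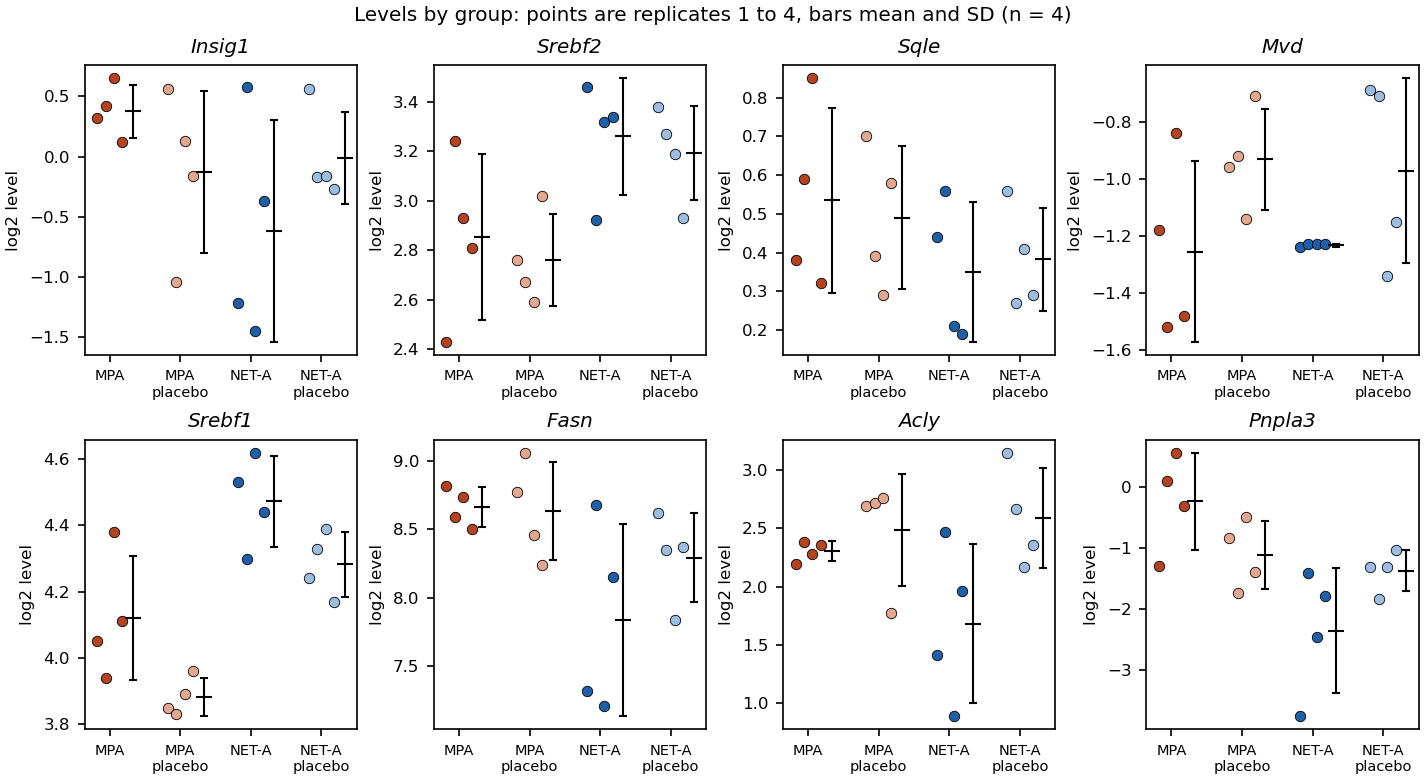
Log2 levels of 8 members on every array (points, replicates 1 to 4 from left to right), with mean and SD of the 4 arrays of each group, in the order MPA, MPA placebo, NET-A, NET-A placebo. Groups overlap in every panel of each experiment, and NET-A replicates 1 and 3 are the lowest of the 4 NET-A arrays for Insig1, Fasn and Acly but the highest for Srebf1.

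The fatty acid branch had a negative median with NET-A, with no member past the threshold, and a median near 0 with MPA. Its median log2 change was -0.41 with NET-A, with 4 members higher and 12 lower and changes from -0.98 to 0.35, and -0.03 with MPA, with 7 higher and 8 lower and changes from -0.40 to 0.89. The MPA median depended on the setting. It was 0.12 under quantile normalization and -0.40 under the normexp correction, about the size of the NET-A median, and -0.42 within slide 1 and 0.33 within slide 2. The standard errors were wider than for sterol members, with a median of 0.40 with NET-A against 0.17 for the sterol branch and 0.20 for all genes. Without 1 array, the NET-A median ran from -0.70 (without NET-A replicate 2) to -0.22 (without NET-A replicate 3), was -0.23 without NET-A replicate 1, and always stayed below 0. Within slides it did not keep its sign. It was -1.36 on slide 3 and -0.78 on slide 4, with 1 array per group and no test, and 0.22 on slide 5, which held NET-A replicates 2 and 4.

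Acly, which makes acetyl-CoA from citrate in the cytosol, had the smallest p of all 35 members with NET-A. Its levels were 1.41, 2.47, 0.89 and 1.96 on NET-A arrays, against 3.15, 2.67, 2.17 and 2.36 with placebo. NET-A replicates 1, 3 and 4 lay below every placebo array and replicate 2 lay among them. The change was -0.91 ± 0.36, a ratio of 0.532 (limma adjusted p = 0.769), and ran from -1.17 without NET-A replicate 2 to -0.65 without NET-A replicate 3. A second probe also gave a negative change. Within slides the change of the brighter probe was -1.75 on slide 3, -1.78 on slide 4 and -0.06 on slide 5. With MPA the levels were 2.19, 2.38, 2.28 and 2.36, against 2.69, 2.72, 2.76 and 1.77 with placebo, a change of -0.18 ± 0.23. Placebo replicates 1 to 3 lay above all MPA arrays and replicate 4 below them. Here the second, much dimmer probe gave 1.05 ± 0.49, the opposite sign.

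Pnpla3, a lipase and acyltransferase of lipid droplets that SREBP-1 induces in mouse liver, had changes of opposite sign with MPA and NET-A, neither past the threshold. It stood at -1.29, 0.11, 0.57 and -0.31 on MPA arrays, against -0.83, -1.74, -0.49 and -1.39 with placebo. With NET-A it stood at -3.75, -1.41, -2.46 and -1.79, against -1.31, -1.84, -1.30 and -1.03 with placebo. The groups overlapped in both, with MPA replicates 2 to 4 above all placebo arrays and NET-A replicates 1 and 3 below all of theirs. The changes were 0.89 ± 0.41 with MPA (limma adjusted p = 0.817) and -0.98 ± 0.47 with NET-A (limma adjusted p = 0.826). NET-A replicate 1 was the only array of that group not well above background for this gene, and without it the NET-A change was -0.52. Within slides the NET-A change was -2.44 on slide 3, -0.62 on slide 4 and -0.44 on slide 5.

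Srebf1 had a positive change with both progestins, but one of -0.17 with MPA under the normexp background correction. Its levels were 4.05, 3.94, 4.38 and 4.11 on MPA arrays, against 3.85, 3.83, 3.89 and 3.96 with placebo. On NET-A arrays they were 4.53, 4.30, 4.62 and 4.44, against 4.24, 4.33, 4.39 and 4.17 with placebo. In each experiment 3 progestin arrays lay above every placebo array and replicate 2 lay among them. The changes were 0.24 ± 0.14 with MPA (limma adjusted p = 0.855), and 0.19 ± 0.12 with NET-A (limma adjusted p = 0.897). The array has 1 Srebf1 probe, so transcripts from the different promoters mentioned above were not measured separately.

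Fasn, which joins acetyl and malonyl units into palmitate, stood at 8.82, 8.59, 8.74 and 8.50 on MPA arrays, against 8.77, 9.06, 8.46 and 8.24 with placebo. On NET-A arrays it stood at 7.32, 8.68, 7.21 and 8.15, against 8.62, 8.35, 7.84 and 8.37 with placebo. The MPA arrays lay inside the placebo span, while NET-A replicates 1 and 3 lay below all placebo arrays and replicate 2 above them. The change was 0.03 ± 0.20 with MPA (limma adjusted p = 0.990). With NET-A it was -0.45 ± 0.34 (limma adjusted p = 0.926), and -0.24 without NET-A replicate 3, -0.28 without replicate 1 and -0.73 without replicate 2. Within slide 5 it was 0.32. Its probe lies at chr11:120668460-120668519 on the minus strand in mm9, the build of the array files and not that of the promoter windows.
Scd1, which places the double bond in stearate and palmitate, also had NET-A replicates 1 and 3 below every placebo array. It stood at 4.95, 6.95, 5.6 and 6.61 on NET-A arrays, against 6.76, 6.62, 5.69 and 6.51 with placebo, and at 7.59, 6.54, 7.13 and 6.98 on MPA arrays, against 7.66, 7.53, 7.20 and 6.67 with placebo. Its groups overlapped, with a change of -0.37 ± 0.45 with NET-A and -0.20 ± 0.28 with MPA. The NET-A change was -0.01 without NET-A replicate 1, -0.22 without replicate 3, -0.67 without replicate 2 and -0.60 without placebo replicate 3, and 0.68 within slide 5. The MPA change was -0.03 without MPA replicate 2 and -0.40 without placebo replicate 4.

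Dgat2, which adds the last acyl chain of triglyceride, was among the smallest p values of the branch with MPA. Its levels were 6.32, 6.18, 6.53 and 6.81 on MPA arrays, against 6.23, 6.35, 6.10 and 5.75 with placebo, with MPA replicates 3 and 4 above all placebo arrays. The change was 0.35 ± 0.19 (limma adjusted p = 0.848), and 2 further probes gave 0.42 and 0.57. It was -0.07 under the normexp correction, and -0.04 within slide 1 and 0.74 within slide 2. On NET-A arrays the levels were 3.43, 5.88, 4.92 and 5.43, against 4.67, 4.41, 4.24 and 4.94 with placebo. Here replicate 1 lay lowest and replicates 2 and 4 above every placebo array, and the change was 0.35 ± 0.48. It was 0.84 without NET-A replicate 1, 0.03 without replicate 2 and 0.18 without replicate 4, and within slides it ran from -1.24 (slide 3) to 1.06 (slide 5).
Mlxipl, the glucose-responsive factor ChREBP, stood at 1.1, 2.73, 1.38 and 1.76 on NET-A arrays, against 2.53, 2.27, 1.82 and 2.53 with placebo. NET-A replicates 1, 3 and 4 lay below every placebo array and replicate 2 above them, a change of -0.54 ± 0.35 (limma adjusted p = 0.901), which was -0.33 without NET-A replicate 1, -0.87 without replicate 2 and 0.07 within slide 5. With MPA it stood at 2.85, 2.81, 3.25 and 3.21, against 3.10, 2.93, 3.07 and 2.75 with placebo, a change of 0.07 ± 0.16.

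The other fatty acid members did not all go one way with NET-A, where the elongase Elovl6 gave -0.72 ± 0.48 and Thrsp, a lipogenic nuclear protein, -0.68 ± 0.50. The carboxylases Acaca and Acacb, which make malonyl-CoA, gave -0.48 ± 0.45 and -0.30 ± 0.31. Agpat2, an acyltransferase of triglyceride synthesis, gave -0.47 ± 0.54, and malic enzyme Me1, a source of NADPH, -0.33 ± 0.29. Scd2, the second desaturase, and the elongase Elovl5 lay close to 0 at -0.05 ± 0.16 and 0.07 ± 0.25. These values moved with single arrays. Without NET-A replicate 2 they were -1.19 for Elovl6, -1.14 for Thrsp, -0.89 for Acaca, -0.58 for Acacb, -1.02 for Agpat2, -0.59 for Me1, -0.15 for Scd2 and -0.17 for Elovl5. Without NET-A replicate 1 they were -0.36 for Thrsp, -0.25 for Acaca, -0.11 for Agpat2 and -0.21 for Me1, and without replicate 3 they were -0.38 for Elovl6, -0.43 for Thrsp, -0.22 for Acaca, -0.09 for Acacb, -0.27 for Agpat2, -0.18 for Me1 and 0.05 for Scd2. Within slide 5 Elovl6, Thrsp, Acaca, Acacb, Agpat2 and Me1 lay above 0, from 0.13 (Acacb) to 0.61 (Agpat2). Gpam, which starts glycerolipid synthesis, gave 0.29 ± 0.65 with NET-A, which was -0.35 without NET-A replicate 2, 0.79 without replicate 1 and -0.15 under the normexp correction. It had no spot well above background with MPA or its placebo, so it has no MPA value. With MPA the same genes without Gpam lay between -0.40 (Elovl5, -0.16 without MPA replicate 2) and 0.32 (Acaca), and the Acaca value rests on 3 placebo arrays because 1 spot was an outlier. It was 0.09 with outlier spots kept, 0.01 without placebo replicate 4 and -0.07 under the normexp correction. The further Acaca probes gave 0.25 to 0.33 with MPA, and a second Elovl5 probe gave -0.46 ± 0.16.

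The NET-A arrays differed among themselves in the fatty acid branch more than their placebo arrays did. The SD over the 4 NET-A arrays was larger than over the 4 placebo arrays for 16 of 16 fatty acid members, with a median SD of 0.815 in NET-A arrays and 0.331 in placebo arrays. Without NET-A replicate 2 it was larger for 11 of 16, with a median of 0.557 over the remaining NET-A arrays. Over all genes tested the NET-A SD was the larger in 56.6%, with medians of 0.287 and 0.256. Among sterol members it was larger for 12 of 19, with medians of 0.237 and 0.205, and for 7 of 19 (median 0.153) without NET-A replicate 2. With MPA the SD was larger than with placebo for 8 of 15 fatty acid members and 14 of 19 sterol members, against 49.0% of all genes. Without MPA replicate 2 the counts were 6 of 15 and 11 of 19, with sterol medians of 0.268 (MPA) and 0.239 (placebo). Without MPA replicate 3 or 4 the fatty acid count was 10 of 15.

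Averaged over the branch and set against the mean of the 8 arrays, the fatty acid members deviated by -0.86, 0.80, -0.60 and -0.01 on NET-A replicates 1 to 4, against 0.43, 0.07, -0.09 and 0.27 on the placebo arrays. NET-A replicate 2 was the highest of the 8 arrays for 13 of 16 members, and NET-A replicates 1 and 3 were each the lowest for 7 and among the lowest pair for 13. The sterol branch deviated less, by -0.13, 0.30, -0.29 and 0.00 on NET-A arrays, against 0.21, -0.08, -0.01 and -0.01 with placebo, with replicate 2 highest and replicate 3 lowest. In the MPA experiment the fatty acid deviations were 0.02, -0.29, 0.30 and 0.06 on MPA arrays, against 0.24, 0.11, 0.02 and -0.44 with placebo, and the extremes were placebo replicate 4 and MPA replicate 3. MPA replicate 2, the array with the lowest signal, was the lowest for 9 of 19 sterol and 5 of 15 fatty acid members. Placebo replicate 4 was the lowest for 2 sterol and 7 fatty acid members.

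Values of fat markers on the same arrays are given beside these. The 7 brown adipocyte markers deviated by -0.96, 1.49, -0.96 and -0.25 on NET-A arrays, against 0.31, -0.09, 0.11 and 0.36 with placebo. The 10 adipocyte markers deviated by -0.79, 1.19, 0.02 and -0.07, against 0.00, -0.23, -0.43 and 0.32. Ucp1, the uncoupling protein that defines brown fat, stood at 5.38, 8.20, 5.51 and 6.17 on NET-A arrays, against 7.07, 6.65, 6.83 and 7.05 with placebo. Replicate 2 was highest and replicates 1 and 3 lowest for Ucp1 as well, while the adipocyte markers were low on replicate 1 alone among the NET-A arrays and near 0 on replicate 3. With NET-A, 5 of 7 brown adipocyte markers were lower, with a median of -0.41, the same as the fatty acid branch. That median was -0.07 without NET-A replicate 1, -0.14 without replicate 3 and -0.91 without replicate 2. The 2 higher were Ppargc1a (0.57 ± 0.60) and Dio2 (0.33 ± 0.22). The adipocyte markers did not follow, with 7 of 10 higher and a median of 0.04. Their median was 0.35 without NET-A replicate 1 and -0.33 without replicate 2. Macrophage markers had medians of -0.55 with MPA and -0.63 with NET-A, with 8 of 8 genes below 0 in both. Without NET-A placebo replicate 4, which stood highest for these markers, 6 of 8 were below 0 and the NET-A median was -0.24. Skeletal muscle markers had a median of -2.35 with MPA (4 of 4 below 0), where only 4 of the 7 listed passed the filter. Of these 4, Myh2 was well above background on 1 MPA array and 3 placebo arrays, so it passed mainly through the placebo group. The median was -0.97 without MPA placebo replicate 3, the array highest for these markers. With NET-A the median was 1.26 (7 of 7 above 0). Here Myh4 was well above background on 4 NET-A arrays and 2 placebo arrays. Without NET-A replicate 1 or 4, or placebo replicate 2 or 4, 6 of 7 were above 0. The median ran from 1.06 to 1.61 with 1 array left out. Erythroid markers were higher in 4 of 4 genes with both, with medians of 0.84 with MPA and 1.51 with NET-A, and neutrophil markers in 2 of 2 (2.62) and 4 of 4 (1.09, but 0.69 without NET-A replicate 1). Endothelial markers deviated by -0.46, 0.73, -0.10 and 0.03 on the NET-A arrays, with replicate 2 highest and replicate 1 lowest of these 4. No marker of these lists passed the adjusted threshold, except that with the slide as a block the neutrophil marker S100a8 did with MPA (2.69 ± 0.22, limma adjusted p = 0.0348). The part of these tissues in the fatty acid values was not tested.

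**Figure D4:**
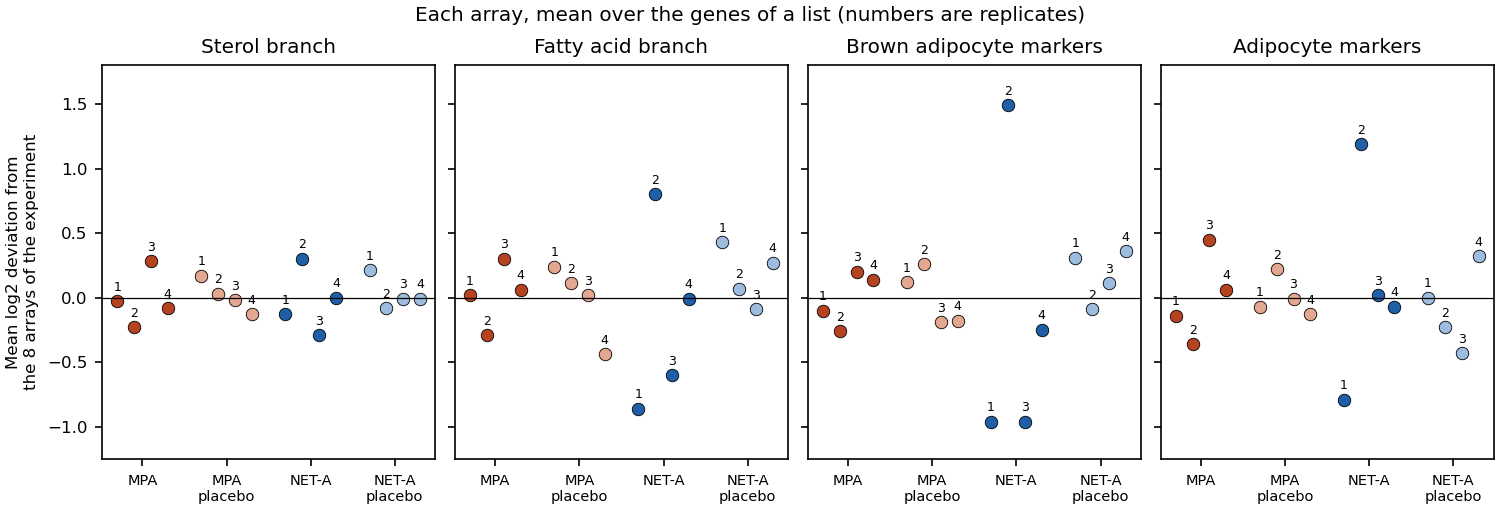
Mean log2 deviation of each array from the 8 arrays of its experiment, over the genes of the sterol branch, the fatty acid branch, the brown adipocyte markers and the adipocyte markers (panels), with groups in the order MPA, MPA placebo, NET-A, NET-A placebo and the replicate number at each point. In the fatty acid and brown adipocyte panels NET-A replicate 2 is at the top (0.80 and 1.49) and replicates 1 and 3 at the bottom.

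Co-variation over arrays was described by Pearson correlations between pairs of members over the 8 arrays of an experiment after each group's mean was removed. These points share slides, scaling and tissue makeup, and no p is given. In the NET-A experiment the median over pairs of fatty acid members was 0.80, over sterol pairs 0.33 (0.21 without NET-A replicate 3), and over pairs of all genes tested 0.008. Fasn and Me1 followed their branch most closely, with medians of 0.93 each (Fasn 0.50 in the MPA experiment), and Scd2 least among the members with a positive median, with 0.66. Without Srebf1 all 105 fatty acid pairs were positive, from 0.47 to 0.99. Srebf1 ran against all 15 other members, with correlations from -0.89 to -0.61 and a median of -0.80.

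Srebf2 ran against most sterol members in the same way, with a median of -0.42 and a positive value for 3 of 18. Sterol members were not alike. Fdps, Idi1, Nsdhl, Hmgcs1 and Insig1 had medians with their branch of 0.75 to 0.78, while Tm7sf2, Lss, Stard4 and Mvd lay between -0.02 and 0.07. Leaving out NET-A replicate 2 lowered the median of fatty acid pairs to 0.54, gave -0.62 for Srebf1 and turned the median of Srebf2 to 0.24, which was -0.66 without placebo replicate 1. Leaving out other arrays gave 0.80 to 0.85 for fatty acid pairs and -0.91 to -0.80 for Srebf1. With slide differences removed as well, the values were 0.84 for fatty acid pairs, 0.46 for sterol pairs and -0.82 for Srebf1. Fatty acid members with brown adipocyte markers gave a median of 0.83, and 0.54 without NET-A replicate 2. With the adipocyte markers they gave 0.76. Sterol members gave a median of 0.57 with brown adipocyte markers and 0.57 with fatty acid members, both above that of sterol pairs.

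In the MPA experiment the fatty acid pairs, taken without Acaca for its missing value, had a median of 0.53 and the sterol pairs 0.27, which was 0.06 without MPA replicate 3, against 0.022 for all genes tested. Srebf1 did not run against its branch there. Its median was 0.23, and it ran from -0.22 without MPA replicate 2 to 0.50 without MPA placebo replicate 4. Srebf2 gave -0.15, from -0.38 without MPA replicate 1 to 0.09 without MPA replicate 2. Fatty acid members gave 0.36 with brown adipocyte markers and also 0.36 with adipocyte markers. Sterol members gave 0.25 with brown adipocyte markers and 0.37 with fatty acid members. Whether the 2 experiments differ in these correlations was not tested.

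**Figure D5:**
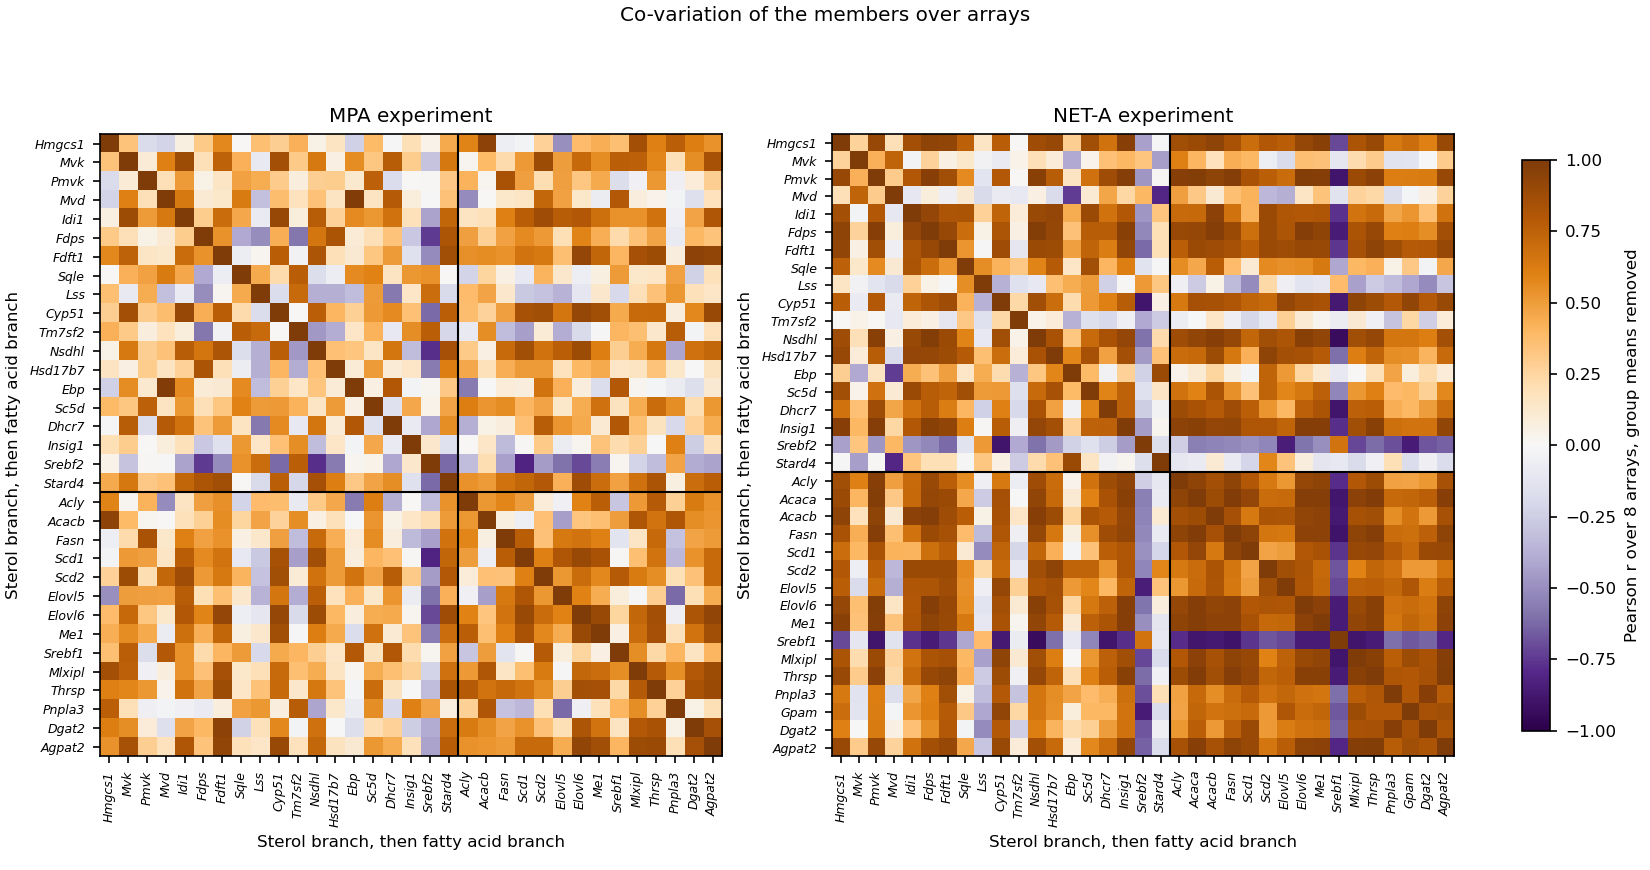
Pearson correlation between members over the 8 arrays of the MPA experiment (left) and the NET-A experiment (right), group means removed, with sterol members before fatty acid members and orange for positive values. In the NET-A experiment the fatty acid block is orange (median 0.80) except for the purple row of Srebf1 (median -0.80).

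The response to MPA minus the response to NET-A was tested as 1 pair of compounds, at doses not given. None of 34 members passed the adjusted threshold in limma over all 16 arrays, where 0.0% of 15089 genes passed (smallest adjusted p = 0.194, for AK052744). At an unadjusted p of 0.05, 1 member was counted, Pnpla3, where 6.77% of all genes were. The Pnpla3 difference was 1.87 ± 0.66, a ratio of 3.65 (95% interval 0.47 to 3.27 on the log2 scale, limma adjusted p = 0.591), and stayed between 1.40 and 2.22 when any 1 array was left out. Insig1 followed with 1.11 ± 0.56 (interval -0.08 to 2.30, adjusted p = 0.757), then Acly with 0.73 ± 0.44 (-0.20 to 1.66, 0.821), Stard4 with 0.44 ± 0.27 (-0.14 to 1.02, 0.835) and Mlxipl with 0.61 ± 0.39 (-0.22 to 1.44, 0.843). Mvk gave -0.23 ± 0.21 (-0.68 to 0.23). The fatty acid branch had a median difference of 0.48, with 13 members above 0 and 2 below, and the sterol branch -0.07, with 7 above and 12 below, against 0.01 over all genes. The fatty acid median was 0.27 without NET-A replicate 3, 0.31 without NET-A replicate 1 and 0.83 without NET-A replicate 2. With the normexp background correction it was -0.07.

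Genes around the pathway also gave no call, as held for all genes tested. With NET-A the fatty acid supply genes had a median of 0.03, against -0.41 in the fatty acid branch. None of 32 measurable genes of SREBP processing, liver X receptor signalling and fatty acid supply passed the adjusted threshold with MPA, and none of 34 with NET-A. The median of the SREBP processing and further sterol genes was -0.03 with MPA and 0.04 with NET-A. Liver X receptor genes had medians of -0.15 with MPA and 0.05 with NET-A, the second -0.19 without NET-A replicate 2. Of these, Abcg1, which exports cholesterol from foam cells, gave -0.84 ± 0.33 with MPA (limma adjusted p = 0.768) and -0.60 ± 0.34 with NET-A, which was -0.30 without NET-A placebo replicate 4. Ch25h, cholesterol 25-hydroxylase, gave -0.54 ± 0.36 with MPA, which was -0.24 without MPA placebo replicate 4, and -0.52 ± 0.22 with NET-A (limma adjusted p = 0.791). Macrophage markers had negative medians in the same comparisons, with the dependence on NET-A placebo replicate 4 given above, and their part in these values was not tested. Genes of fatty acid supply had medians of 0.00 with MPA and 0.03 with NET-A (-0.21 without NET-A replicate 2), and the desaturase Fads1 gave 0.47 ± 0.14 with NET-A (limma adjusted p = 0.625). Fads1 stood at 1.29, 0.88, 1.32 and 0.94 on NET-A arrays, against 0.57, 0.67, 0.66 and 0.64 with placebo, with no overlap. Its highest arrays, replicates 1 and 3, were those lowest for Fasn. With NET-A 2 of the 34 related genes had groups that did not overlap, where 3.91% of all genes did, and the other was Lpcat3, an acyltransferase of phospholipids. It stood at 1.48, 2.04, 1.46 and 1.44 on NET-A arrays, against 1.38, 1.43, 1.15 and 1.41 with placebo, a change of 0.26 ± 0.17 that was 0.12 without NET-A replicate 2. With MPA it was 1 of 32, where 4.01% of all genes did. This was Ggps1, which makes geranylgeranyl diphosphate, at 1.19, 1.13, 1.07 and 1.14 on MPA arrays, against 0.91, 1.01, 0.97 and 0.98 with placebo, a change of 0.16 ± 0.12. These genes were named after their values were seen.

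Levels also differed between the experiments, which were run on separate slides and read with separate software versions, so that these cannot be told apart from any difference between the mice. The 8 arrays of the NET-A experiment lay wholly above the 8 of the MPA experiment for 4 of 34 members (Hmgcs1, Cyp51, Hsd17b7 and Acacb) and wholly below for 2 (Ebp and Mlxipl), while 42.1% of 15089 genes did not overlap. Acacb averaged 2.46 ± 0.61 on NET-A and 2.76 ± 0.30 on its placebo arrays, and -0.73 ± 0.56 on MPA and -0.98 ± 0.31 on its placebo arrays (SD, n = 4 each). A second Acacb probe averaged -3.05 in the NET-A experiment and -2.28 in the MPA experiment, the opposite order. Hmgcs1 averaged 3.05 ± 0.43 on NET-A and 3.10 ± 0.25 on its placebo arrays, and 0.69 ± 0.35 on MPA and 0.96 ± 0.29 on its placebo arrays. Its further probes went both ways, with -4.42 and -3.72 in the NET-A experiment and -3.11 and -4.43 in the MPA experiment. Probes of a gene also disagreed within comparisons, where another probe had the opposite sign for 10 of 22 members with several measurable probes with MPA and for 7 of 24 with NET-A.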

How the data were processed

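Gene expression in aortas was measured on 16 one-colour Agilent arrays, 4 per group. Per the file headers, the deposited spot intensity (processed signal) had background subtracted by Agilent Feature Extraction, version 10.7.1.1 for MPA and its placebo and version 11.0.1.1 for NET-A and its placebo. The annotation is on mm9, and arrays were not normalized to each other. The deposited log2 table of the series was used as an alternative, with its making not given in the sources used here. Compared with the arrays (correlation 0.961 to 1.00, column medians -0.027 to 0.016) it looked like log2 signal, scaled separately per experiment, with probe medians set to about 0. That scale and centring are inferred.

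Outlier spots were left out (3572 values, 0.515%), and the 75th percentile of log2 signal was subtracted from each array. Spots of a probe were averaged (41174 probes), and a gene took its brightest probe over all arrays. Files of the NET-A experiment carry no gene names, so names came through the probe identifiers of the MPA files. A gene entered a comparison when well above background on at least 4 of 8 arrays. Progestin and matching placebo arrays were compared by limma 3.58.1 (lmFit, eBayes, two-sided, Benjamini-Hochberg) in R 4.3.3, and the scripts were tested on simulated data. Placebo groups were assigned by the letter in their titles, and each shares its slides with that progestin. Same-numbered replicates were not treated as pairs. The correlation of their deviations ran from -0.331 to 0.328, which cannot exclude a pairing. In the NET-A experiment, progestin and placebo arrays of the same slide correlated from 0.143 to 0.466, and those of different slides from -0.351 to 0.133. In the MPA experiment same-slide values ran from -0.234 to 0.261. The main fit left the slide out, and it entered as a block only in an alternative.

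Named in full are the 3 members of each branch and comparison with the smallest p, together with Srebf1, Srebf2, Insig1, Fasn, Scd1 and Sqle. Members and lists were chosen with earlier results of these data known. Alternatives were normexp, quantile and median scaling, filters, probe averaging, slide and replicate blocks, array weights, the deposited table and leaving out arrays. The normexp correction used mean signals in the MPA files and median signals in the NET-A files.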

Additional observations from a re-analysis of the deposited data

Results flagged for a closer look

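In 5 of 137 member and group sets of 4 arrays, 1 array stood apart from the other 3 (Dixon's test at the 95% level), where chance gives about 1 in 20. Acly stood at 1.77 on MPA placebo replicate 4, against 2.69 to 2.76 on the other MPA placebo arrays. Elovl6 stood at 2.99 on MPA replicate 2, against 3.76 to 3.82 on the other MPA arrays. Insig1 stood at 0.56 on NET-A placebo replicate 1, against -0.27 to -0.16 on the other placebo arrays. Lss, lanosterol synthase, stood at -1.29 on NET-A replicate 1, against -1.52 to -1.51. Mvd stood at -1.24 on NET-A replicate 1 and at -1.23 on the other NET-A arrays, a gap that is large only against a range of 0.01.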

How the results depend on the processing

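No member passed the adjusted threshold in any alternative of the 3 comparisons (713, 768 and 916 values for MPA, NET-A and their difference), whose smallest adjusted p were 0.105, 0.446 and 0.0978. Signs turned in 85, 61 and 77 of these values. Over all genes, 1 was called with MPA under a slide block (S100a8, adjusted p = 0.0348), 1 in the difference under a replicate block (Sall4, adjusted p = 0.0156), and 1 in the difference without NET-A replicate 1 (Fam107a, adjusted p = 0.00858), a range of 0 to 1 over left-out arrays. The replicate block called no member. It left the branch medians as they were (-0.02 and -0.028 with MPA, -0.036 and -0.41 with NET-A for sterol and fatty acid members). That was fixed by the design, since each replicate number held 1 progestin and 1 placebo array. Such a block can move only the changes of genes with a missing value. The fatty acid median with MPA was -0.40 with the normexp correction, -0.42 within slide 1 and 0.33 within slide 2, and the sterol median was -0.28 within slide 1 and 0.15 within slide 2. With NET-A the fatty acid median was -1.36 within slide 3, and the sterol median -0.27 within slide 3, -0.052 within slide 4 and 0.22 within slide 5. The causes were not tested. Leaving out 1 array gave fatty acid medians of -0.20 to 0.098 with MPA, -0.70 to -0.22 with NET-A and 0.27 to 0.83 for their difference, and sterol medians of -0.13 to 0.014, -0.099 to 0.017 and -0.17 to 0.068. With 4 arrays per group, standard errors of members ran from 0.14 to 0.41 with MPA and from 0.11 to 0.65 with NET-A. Leaving out arrays in the difference, the related and marker lists and the SD over arrays was chosen after seeing the data.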
